A study of Mus musculus with 12 samples.

Results

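Transcripts known from monocytes and macrophages were followed in sorted bone marrow plasma cells, on expression arrays of 6 wild-type and 6 Zbtb32-/- samples. They are Cd68, Cd14, Cybb, Csf1r, Lyz2, Adgre1, Ly86, Mpeg1, Vcam1 and C1qa, which were chosen as a list of symbols and are 10 of the 19938 genes measured by a probe set that names 1 gene. Each of the 10 symbols is named by 1 probe set, and all 10 were among the 14993 genes that passed a filter on low values. In both groups splenocytes of CD45.2 donors that were immune to NP-CGG, the hapten NP on a carrier, were moved into CD45.1 recipients, which were then challenged with NP-CGG. The donors were wild type (Zbtb32 +/+) or Zbtb32-/-. Plasma cells that bound NP were sorted from the recipients' marrow 7 days later as CD138+ CD45.2+ cells that lacked B220, Ly6g, CD11b and CD45.1. Zbtb32 is a transcription factor of the BTB zinc finger family. The labels give neither the deleted part of the gene, nor the animals' age, nor whether recipients were irradiated or pooled. White blood cells of the recipients carry CD45.1 and, like stroma, which lacks CD45, lie outside the gate. The CD45 markers do not exclude other cells among the CD45.2 splenocytes of the donors.

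Monocytes leave the marrow for the blood and tissues, while resident macrophages stay in the marrow, where they engulf dying cells and the nuclei shed by red cell precursors and recycle iron. Macrophages depend on the receptor for the growth factor CSF1, and both cell types on the transcription factor PU.1. Plasma cells lodge in marrow niches in which cells that display VCAM1 bind the integrin VLA-4 on the plasma cell. Several of the 10 genes are known from other cells too: Lyz2, Cybb and Cd14 from neutrophils, Cybb, Ly86 and Mpeg1 from B lineage cells, and Vcam1 from stroma and endothelium.

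The values are log2 RMA values per probe set, a scale on which a difference of 1 is a factor of 2, and the level of a gene is not set against that of another gene because probe sets differ in how they bind. The median over all probe sets lay between 6.28 and 6.43 on each array. The defining genes of plasma cells were measured on every array, with Jchain, the joining chain of antibody polymers, between 13.51 and 13.94 and Xbp1, a transcription factor of antibody secretion, between 12.68 and 13.43. The genes of the markers used to exclude cells were also measured: Itgam, which encodes CD11b, ran from 6.49 to 11.10 and Ly6g from 5.89 to 10.30, each highest in Zbtb32-/- replicate 6. Sdc1, which encodes CD138, ran from 10.32 to 11.34, and Ptprc, which encodes CD45 without telling its alleles apart, from 9.85 to 10.83. In such bulk samples a larger number of cells of a type and more RNA per cell cannot be told apart. Results are also given for replicates 1 to 3 and replicates 4 to 6 separately, 3 arrays of each genotype in each set. This split of the replicate numbers comes from earlier work on these data and is not called a batch in the labels.

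None of the 10 genes passed the test for a difference between the genotypes. With limma and Benjamini-Hochberg adjustment over 14993 genes, 0 of the 10 passed an adjusted p of 0.05, where 0% of all genes did, and 0 had an unadjusted p under 0.05, where 4.28% of all genes did. Differences, Zbtb32-/- minus wild type, were negative for 7 genes and positive for 3, with a median of -0.20 beside 0.012 over all genes. The 95% interval excluded a 2-fold rise for 8 of the 10 genes and a 2-fold fall for 3 of them. Leaving out wild-type replicate 5 turned the median to 0.13 with 6 positive genes, and leaving out Zbtb32-/- replicate 6 gave -0.41 with 1 positive gene.

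**Figure D1:**
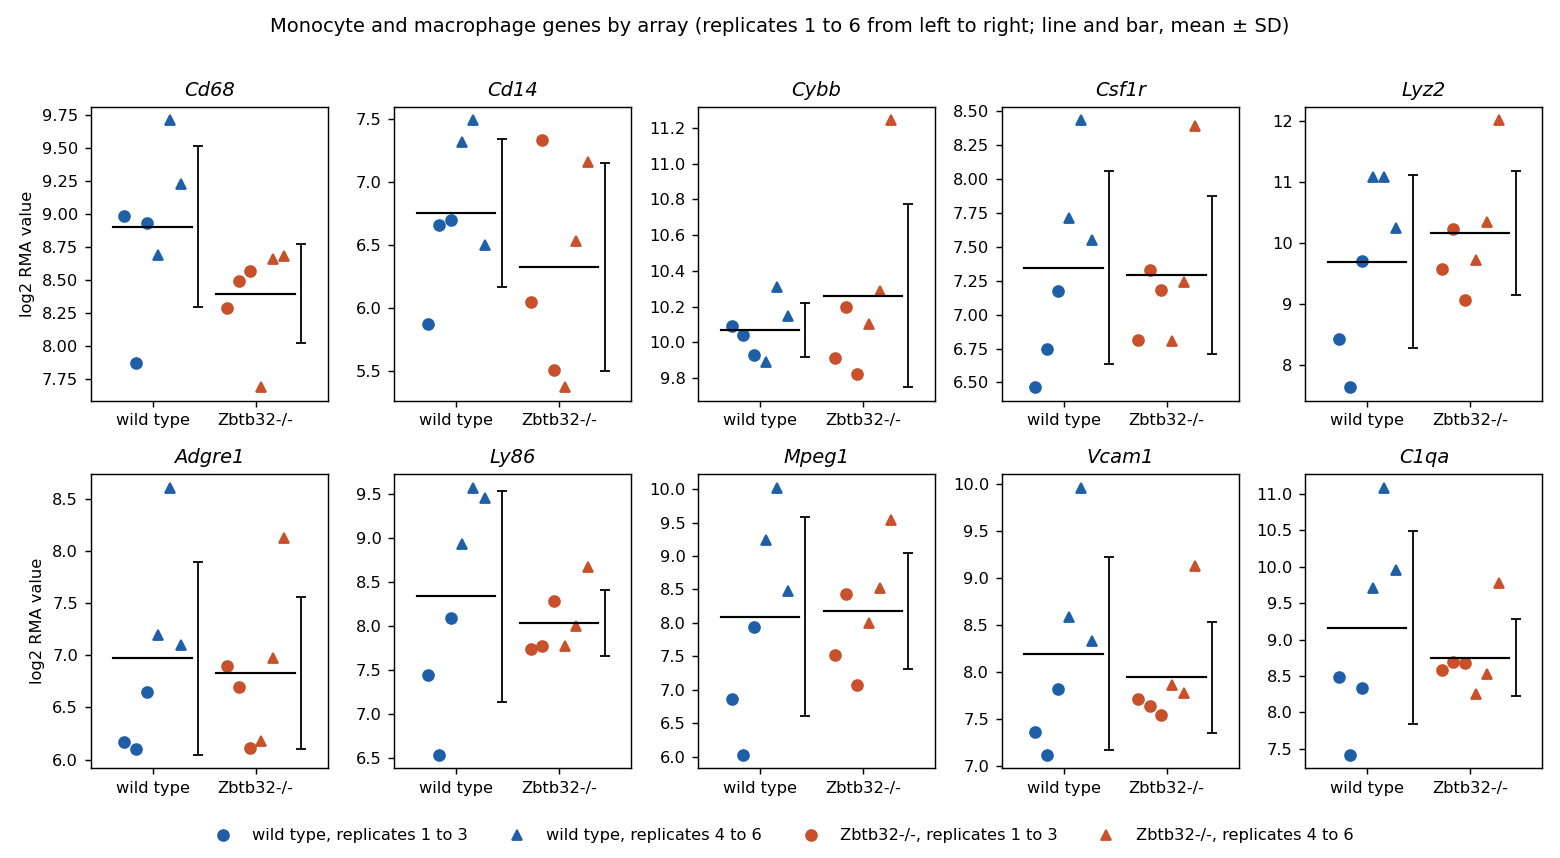
Log2 RMA value (y axis) of each of the 10 genes on each array, with wild type in blue and Zbtb32-/- in orange; circles are replicates 1 to 3, triangles replicates 4 to 6, lines the genotype means and bars ± SD (n = 6 each). The blue triangles lie above the blue circles in 7 of the 10 panels, and the orange triangle of replicate 6 is the highest of its genotype in 9.

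The 10 genes varied widely between arrays of 1 genotype. The SD within genotype ran from 0.38 for Cybb to 1.23 for Lyz2, with a median of 0.84, while the median over all tested genes was 0.25 and the 90th percentile 0.49. That 90th percentile was exceeded by 9 of the 10, Cybb being the exception. From the lowest to the highest of the 12 arrays, Lyz2 spanned 20.8-fold, Mpeg1 16.0-fold and C1qa 12.8-fold, against 2.68-fold for Cybb. Wild-type replicate 5 had the highest wild-type value of all 10 genes and Zbtb32-/- replicate 6 the highest Zbtb32-/- value of 9. At the low end, wild-type replicate 2 had the lowest wild-type value of 7 genes. The SD was larger in wild type than in Zbtb32-/- for 8 genes and smaller for Cd14 and Cybb, a comparison that was not tested.

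Among the genes of engulfment, C1qa encodes a chain of C1q, the complement component that tags dying cells and immune complexes. Its values in wild-type replicates 1 to 3 were 8.48, 7.42 and 8.33, and in wild-type replicates 4 to 6 they were 9.71, 11.09 and 9.96. In Zbtb32-/- replicates 1 to 3 they were 8.59, 8.70 and 8.68, and in replicates 4 to 6 8.25, 8.53 and 9.78. The wild-type values of replicates 1 to 3 lay below all Zbtb32-/- values but that of replicate 4, and those of replicates 4 to 6 above all but that of replicate 6. Over 6 arrays each the means were 9.16 ± 1.33 and 8.75 ± 0.53 (SD), a difference of -0.41 (SE 0.51, limma adjusted p = 0.944). The genotype difference was 0.58 (SE 0.43) over replicates 1 to 3, where each Zbtb32-/- array lay above each wild-type array, as for 3.04% of all genes. Over replicates 4 to 6 it was -1.41 (SE 0.43). C1qb and C1qc, which encode the other chains of C1q, gave 0.39 and 0.44 over replicates 1 to 3 and -1.41 and -1.32 over replicates 4 to 6.

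Cd68 encodes a glycoprotein of late endosomes and lysosomes. It read 8.99, 7.88 and 8.93 in wild-type replicates 1 to 3 and 8.69, 9.71 and 9.23 in replicates 4 to 6. In Zbtb32-/- cells it read 8.29, 8.50 and 8.57, then 7.69, 8.66 and 8.68. Of the 6 wild-type arrays, 5 lay above every Zbtb32-/- array, and wild-type replicate 2 was the exception. Wild-type replicate 4 did so only narrowly, at 8.690 against 8.680 in Zbtb32-/- replicate 6. The difference was -0.51 (SE 0.27, 95% interval -1.08 to 0.064), with an unadjusted p of 0.0778 and a limma adjusted p of 0.933. It ran from -0.71 without wild-type replicate 2, the array that was the exception, to -0.34 without wild-type replicate 5. Without wild-type replicate 2 the limma unadjusted p was 0.00583, in a setting where 3.99% of all genes were under 0.05. With array weights the unadjusted p was 0.020, where 4.76% were, and Cd68 did not pass the adjusted threshold in any setting.

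Mpeg1 encodes perforin-2, a pore-forming protein directed at engulfed bacteria. Wild-type values were 6.85, 6.03 and 7.94 in replicates 1 to 3 and 9.24, 10.03 and 8.48 in replicates 4 to 6. Zbtb32-/- values were 7.52, 8.44 and 7.07, then 7.99, 8.51 and 9.54. The wild-type replicates fell into 2 ranges that did not meet, and the Zbtb32-/- replicates overlapped. The genotype difference was 0.085 (SE 0.60, limma adjusted p = 0.992), and it was negative without wild-type replicate 1 or 2, without Zbtb32-/- replicate 6 and with array weights (-0.067).

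Cybb encodes the membrane subunit of the NADPH oxidase that makes superoxide in phagocytes. Its SD within genotype was the smallest of the 10 genes, although in Zbtb32-/- cells alone its SD of 0.51 exceeded those of Cd68 (0.38) and Ly86 (0.37). The lowest, median and highest values were 9.89, 10.07 and 10.31 in wild type and 9.82, 10.15 and 11.24 in Zbtb32-/- cells. The value of 11.24 belonged to replicate 6, and the other 5 Zbtb32-/- arrays lay at or below 10.29. The difference was 0.19 (SE 0.20, limma adjusted p = 0.936) and -0.0042 without that array. Its partner Cyba ran from 11.61 to 12.36 over the 12 arrays, and Ncf1, a cytosolic subunit of the oxidase, from 7.19 to 9.39, also highest in Zbtb32-/- replicate 6.

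Lyz2 encodes lysozyme M, an enzyme that cuts bacterial cell walls, made by macrophages, monocytes and neutrophils. Its wild-type values were 8.42, 7.63 and 9.70 in replicates 1 to 3 and 11.08, 11.09 and 10.25 in replicates 4 to 6. Zbtb32-/- arrays gave 9.58, 10.24 and 9.07, then 9.72, 10.34 and 12.01, the highest of all 12. The genotypes overlapped over most of their range, with a difference of 0.46 (SE 0.61, 95% interval -0.85 to 1.78, limma adjusted p = 0.947). Lyz1, its near-identical neighbour, has a probe set of its own that ran from 5.96 to 8.26, was highest in the same Zbtb32-/- array and differed by -0.080. How far transcripts of these paralogs bind each other's probes was not tested.

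Of the receptors, Csf1r encodes the receptor for CSF1 and IL-34, on which macrophages depend. It read 6.46, 6.75 and 7.17 in wild-type replicates 1 to 3 and 7.71, 8.44 and 7.55 in replicates 4 to 6. The Zbtb32-/- values were 6.81, 7.33 and 7.18, then 6.81, 7.24 and 8.39. The genotypes overlapped over nearly their whole range. The difference was -0.053 (SE 0.33, limma adjusted p = 0.991), and leaving out 1 array made it positive in 4 cases, those of the fourth and the fifth wild-type array and of the first and the fourth Zbtb32-/- array. The genes of its ligands, Csf1 and Il34, differed by 0.13 and 0.052, with neither passing.

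Adgre1 encodes the adhesion receptor that is the standard surface marker of mouse macrophages. It read 6.17, 6.10 and 6.65 in wild-type replicates 1 to 3, 7.20, 8.61 and 7.10 in replicates 4 to 6, and 6.90, 6.70, 6.11, 6.18, 6.98 and 8.13 in Zbtb32-/- replicates 1 to 6. The latter all lay within the wild-type range. The difference of -0.14 (SE 0.42) became 0.19 when wild-type replicate 5 was left out. It was 0.0031 when the third Zbtb32-/- array was. Cd14, the co-receptor that hands bacterial lipopolysaccharide to Tlr4, had a lowest, median and highest value of 5.87, 6.68 and 7.49 in wild type and 5.37, 6.29 and 7.33 in Zbtb32-/- cells. Its lowest value lay under the filter level of 5.49, and its order over the arrays differed from that of the others, since Zbtb32-/- replicate 2 was highest in its genotype. Cd14 differed by -0.43 (SE 0.36, limma adjusted p = 0.933), and Tlr4 and Ly96, the other genes of the lipopolysaccharide receptor, by 0.25 and 0.061.

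Ly86 encodes a secreted protein that binds Cd180, a relative of the Toll-like receptors found on B cells and macrophages. Wild-type replicates 1 to 3 read 7.44, 6.54 and 8.09 and replicates 4 to 6 read 8.93, 9.57 and 9.45. Zbtb32-/- arrays read 7.74, 7.77 and 8.29 in replicates 1 to 3 and from 7.77 to 8.67 in replicates 4 to 6, with a median of 7.89 over the 6. In replicates 4 to 6 each Zbtb32-/- array lay below each wild-type array, as for 5.76% of all genes, with a difference of -1.17 (SE 0.36), while over replicates 1 to 3 it was 0.57 (SE 0.36). Over all 12 arrays the difference was -0.30 (SE 0.45, limma adjusted p = 0.955). Cd180 stayed between 6.93 and 8.11 over the arrays and differed by 0.049.

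Vcam1 encodes the adhesion molecule that binds VLA-4 and is carried by marrow macrophages, stroma and endothelium. It read 7.37, 7.12 and 7.82 in wild-type replicates 1 to 3 and 8.58, 9.97 and 8.33 in replicates 4 to 6. Zbtb32-/- arrays read 7.72, 7.64 and 7.54, then 7.86, 7.78 and 9.13, so that 5 of them lay between 7.54 and 7.86 and replicate 6 stood above. Vcam1 was the 1 gene of the 10 whose replicates 4 to 6 all lay above replicates 1 to 3 within each genotype. The difference was -0.25 (SE 0.42, limma adjusted p = 0.958) and 0.10 without wild-type replicate 5. Itga4, a chain of VLA-4, ran from 11.69 to 12.50 and differed by 0.18. Markers of stroma and endothelium, which also carry Vcam1, had their highest list mean, 7.04, in the wild-type array where Vcam1 was highest, and their part in its values was not tested.

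The replicate sets differed most in wild type. There, all 10 genes had a higher mean in replicates 4 to 6 than in 1 to 3, by a median of 1.43, and in 7 of them the ranges did not meet, where 6.77% of all tested genes showed this. The reverse order was seen for 0 of the 10, beside 15.7% of all genes. Over all genes the median of the same difference was -0.070 and 40.2% were positive. In Zbtb32-/- cells 9 of 10 were higher in replicates 4 to 6, by a median of 0.45, and in 1, Vcam1, the ranges did not meet, beside 6.37% of all genes, with the reverse order for 0 of the 10, beside 14.4%. Over both genotypes together, 0 of the 10 had all replicates 4 to 6 above all replicates 1 to 3, beside 1.03% of all genes, and 0 had them below, beside 2.86%. Without wild-type replicate 5 and Zbtb32-/- replicate 6, left out after the data were seen, 9 of 10 wild-type differences were positive with a median of 0.94. In Zbtb32-/- cells 5 of 10 were positive and the median was -0.018. The difference between the sets itself was given no test because the split was chosen on these arrays.

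Within the sets, the genotype difference was positive for 7 of the 10 genes over replicates 1 to 3, with a median of 0.29, and negative for 9 over replicates 4 to 6, with a median of -0.64. Over all genes the medians were 0.0042 and 0.023. With limma 0 of the 10 passed the adjusted threshold in either set, where 0% and 0.0133% of all genes did. At an unadjusted p under 0.05 there were 0 of 10 over replicates 1 to 3, beside 1.43% of all genes, and 3 of 10 over replicates 4 to 6, beside 9.34%, namely Cd68, Ly86 and C1qa. Every Zbtb32-/- array lay above every wild-type array for 1 gene (C1qa) over replicates 1 to 3, beside 3.04% of all genes, and for 0 over replicates 4 to 6, beside 7.18%. Every Zbtb32-/- array lay below for 0 over replicates 1 to 3, beside 3.46%, and for 2 (Cd68 and Ly86) over replicates 4 to 6, beside 5.76%. For Cd68 the nearest arrays were 8.690 in wild type and 8.680 in Zbtb32-/- cells. Whether the sets differed in the genotype difference was tested as an interaction. The split was chosen on these arrays, and the p-values within the sets and of the interaction do not allow for that choice. The interaction was negative for 9 genes, with a median of -0.86 beside 0.015 over all genes, and for Cybb it was positive, at 0.48. None of the 10 passed (limma adjusted p = 0.998 for each), as for 0% of all genes, and 2 had an unadjusted p under 0.05, beside 3.86% of all genes. These were C1qa at -1.99 (SE 0.61, unadjusted p = 0.00685) and Ly86 at -1.75 (SE 0.51, unadjusted p = 0.00513). Their signs stayed negative on leaving out any single array. The count of 2 changed in some settings. When Zbtb32-/- replicate 6 was left out, 7 of the 10 had an unadjusted p under 0.05, beside 6.18% of all genes. These were Csf1r, Lyz2, Adgre1, Ly86, Mpeg1, Vcam1 and C1qa. Without wild-type replicate 3 there were 3, beside 4.47%, and without wild-type replicate 5 and Zbtb32-/- replicate 6 together 4, beside 7.82%. With array weights there were 6, beside 12.6%. None of the 10 passed the adjusted threshold in any of these settings.

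**Figure D2:**
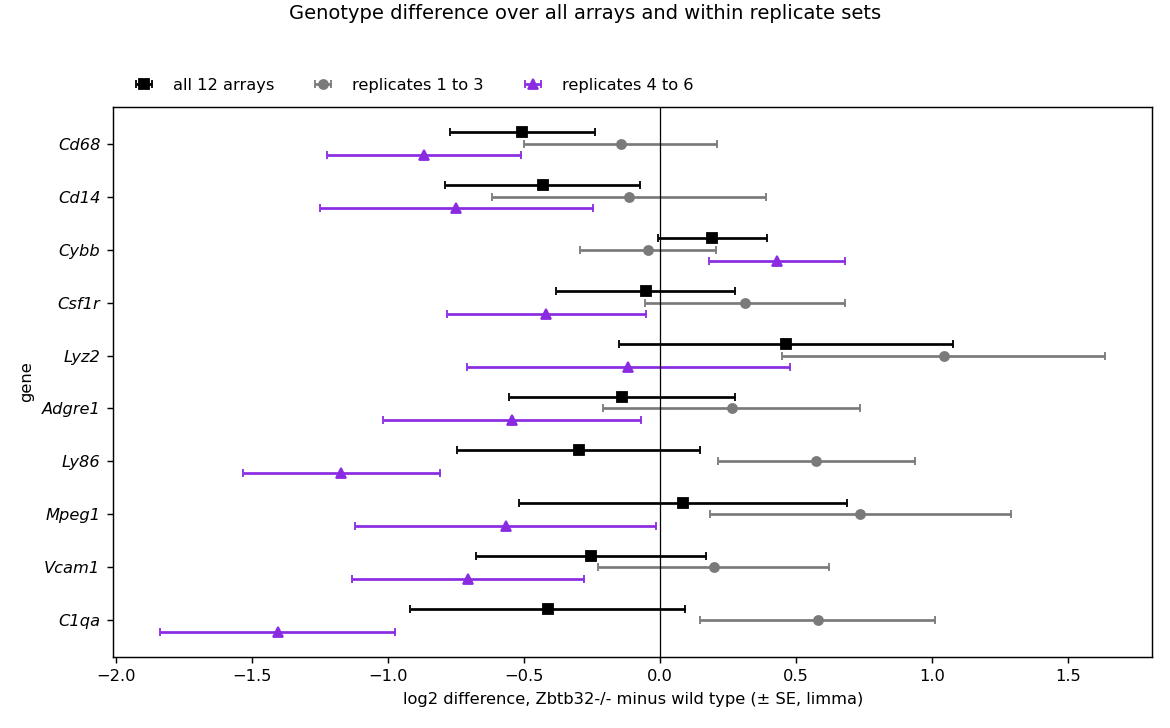
Log2 difference, Zbtb32-/- minus wild type (x axis, ± SE from limma), of each gene over all 12 arrays (black squares), over replicates 1 to 3 (grey circles) and over replicates 4 to 6 (purple triangles). The purple triangle lies left of the grey circle for 9 genes and right of it for Cybb, and the 2 symbols are farthest apart for C1qa and Ly86.

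Most of the 10 genes had a similar course over the arrays. Pearson's r over the 12 arrays had a median of 0.74 over the 45 pairs, from 0.15 for Cd68 with Cybb to 0.96 for Lyz2 with Mpeg1. These values are descriptions with no test, since the pairs share their arrays and the RMA normalization. Csf1r, Lyz2, Adgre1, Ly86, Mpeg1, Vcam1 and C1qa, grouped after their values were seen, had 21 pairs with r from 0.74 to 0.96. Without wild-type replicate 5 and Zbtb32-/- replicate 6, the 2 arrays farthest from the median of the mean of the 10 genes, those pairs had r from 0.68 to 0.99. Cybb depended on these arrays: its median r with the other 9 genes was 0.51 with them and 0.040 without them. After the mean of each genotype in each replicate set was taken off, the median over the 45 pairs was 0.71.

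**Figure D3:**
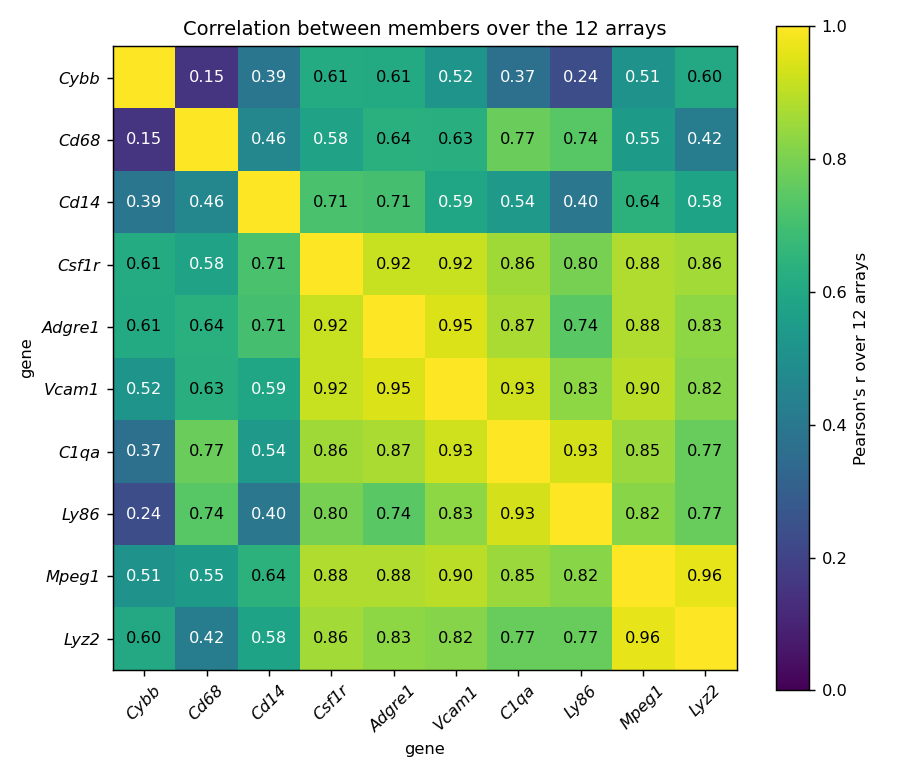
Pearson's r between each pair of the 10 genes over the 12 arrays, from 0 (dark) to 1 (bright), with the value in each cell. Cybb, Cd68 and Cd14 form the darker rows, with a lowest value of 0.15, and Lyz2 with Mpeg1 is the brightest cell, at 0.96.

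The pair with the closest course, Lyz2 and Mpeg1 (Spearman's rho 0.99), and the gene with the least shared course without the 2 highest arrays, Cybb, are shown by the 250 bases before their start sites in RefSeq (build GRCm38.p6), so that the sequences of like and unlike members can be set side by side. Capitals mark AGGAA or its reverse complement TTCCT, letters that many but not all PU.1 sites contain. They were searched on both strands after the sequences had been seen, and the shorter GGAA was not searched.
Lyz2, chr10:117282273-117282522, minus strand: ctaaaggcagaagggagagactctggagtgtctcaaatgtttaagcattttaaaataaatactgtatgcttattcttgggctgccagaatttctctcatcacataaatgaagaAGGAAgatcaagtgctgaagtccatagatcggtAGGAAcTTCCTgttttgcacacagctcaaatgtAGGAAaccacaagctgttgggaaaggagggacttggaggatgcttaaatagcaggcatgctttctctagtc
Mpeg1, chr19:12460520-12460769, plus strand: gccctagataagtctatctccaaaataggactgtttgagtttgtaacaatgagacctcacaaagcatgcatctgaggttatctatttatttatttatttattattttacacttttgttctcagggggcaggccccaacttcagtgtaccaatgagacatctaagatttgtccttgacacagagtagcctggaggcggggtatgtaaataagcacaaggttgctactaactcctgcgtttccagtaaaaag
Cybb, chrX:9469325-9469574, minus strand: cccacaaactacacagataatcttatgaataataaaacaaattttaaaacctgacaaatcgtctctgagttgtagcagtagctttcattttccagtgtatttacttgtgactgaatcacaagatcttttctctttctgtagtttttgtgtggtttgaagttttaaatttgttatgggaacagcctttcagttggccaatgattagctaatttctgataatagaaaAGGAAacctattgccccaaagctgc
Lyz2 held the marked letters 4 times, Cybb once at position -25 from its start and Mpeg1 not at all. The pair with the closest course was therefore not alike in them. The shorter TTCC, the reverse complement of GGAA, does occur in the Mpeg1 sequence. Of the 5 genes whose promoters were used, these 3 with Cd68 and Ly86, 4 held AGGAA, beside 60.3% of all 32851 promoters of this length. The longer GAGGAA, which contains AGGAA, was found in 1 of the 5, Cd68, beside 23.3% of all, and the ETS-IRF composite element, a joint PU.1 and IRF motif, in 0 of the 5, beside 2.30% of all. No promoter sequence was used for Adgre1, Vcam1, C1qa, Cd14 and Csf1r. A match is a run of letters and no evidence of binding.

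For each of the 10 genes, the gene outside the list with the most similar course over the 12 arrays was found by Pearson's r. Several of these are known from myeloid cells. Lyz2 went with Pilra, an inhibitory receptor of myeloid cells (r = 0.99), Mpeg1 with Ifitm3, an interferon-induced membrane protein (0.98), and Csf1r with Gm5150 (0.97). The closest to C1qa was Hpgd, which inactivates prostaglandins (0.97), followed by the mannose receptor Mrc1 (0.97). Vcam1 went with Trf, the iron carrier transferrin (0.96), Adgre1 with the sorting receptor Sort1 (0.95) and Ly86 with the lysosomal amidase Naaa (0.94). Cybb went with Flot1 (0.97, and 0.77 without the 2 arrays above), Cd14 with the Toll-like receptor Tlr2 (0.88) and Cd68 with the mitochondrial enzyme Acad8 (0.87). Each is the best match among the tested genes, so a high r is what the search selects.

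Other genes of these cells, from lists drawn up with earlier results known, had a similar course: over the 12 arrays the mean of the 10 genes had r = 0.967 with the monocyte list and 0.945 with the resident macrophage list. Of 15 measured monocyte genes, 6 had a positive and 9 a negative genotype difference, with a median of -0.028 and 0 passing in either direction. Of these, Tyrobp and Fcer1g, signalling adaptors of Fc and related receptors, ran from 7.91 to 11.56 and from 7.94 to 11.52. Of 18 measured genes of resident macrophages 16 passed the filter and Msr1 and Vsig4 did not. Of the 16, 1 had a positive and 15 a negative genotype difference, beside 52.9% positive over all genes. Their median was -0.30 and 0 passed in either direction. The mean of the 18 measured genes was highest in wild-type replicate 5, at 8.17, while its highest value in Zbtb32-/- cells was 7.28. How far the count of 15 depends on wild-type replicate 5 was not tested. The interaction of these genes with the replicate set was negative for 16 of 16, beside 52.5% positive over all genes. Its median was -1.47 and 0 passed. Spic and Slc40a1, a transcription factor and an iron exporter of iron-recycling macrophages, were picked after their values were seen. They differed by 0.46 and 1.14 over replicates 1 to 3 and by -1.45 and -1.37 over replicates 4 to 6. Slc40a1 had the most negative interaction of the 16, at -2.51. Gpnmb had the weakest, at -0.014, and differed by 0.064 over replicates 1 to 3 and 0.049 over replicates 4 to 6. Apoe, a lipid carrier of macrophages, ran from 8.04 to 10.56.

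Partner genes were counted in the same way. The NADPH oxidase list held 3 positive and 1 negative genotype differences, with Cyba at 0.13 and Rac2, a GTPase of the oxidase, at 0.12. The list around Tlr4 and Cd180 held 4 and 1, both VLA-4 genes were positive, and 2 of 7 lysosomal genes were positive, with the cathepsins Ctsb and Ctss at -0.053 and -0.036. The transcription factor and ligand list held 4 and 3, with Spi1, which encodes PU.1, at 0.21 and Irf8 at -0.19. In these lists 0 genes passed in either direction by limma, where 0% of all genes did. In all 14 lists 0 of the tested genes had an unadjusted p under 0.05, beside 4.28% of all genes.

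Markers of some other cells moved with the 10 genes, and their part in these values was not tested. Over the 12 arrays the mean of the 10 genes had r = 0.86 with the neutrophil list, 0.81 with the B cell list and 0.82 with the stromal and endothelial list. It had 0.44 with the T and NK list and 0.089 with the erythroid list. Spearman's rho was 0.90 for the neutrophil, 0.76 for the B cell and 0.64 for the stromal and endothelial list. The last list had its highest means in wild-type replicate 5 (7.04) and Zbtb32-/- replicate 6 (6.88). These r values were not computed without those 2 arrays. The mean of 16 neutrophil genes, among them S100a9 and Ngp, ran from 7.85 to 10.64 in wild type and from 8.69 to 11.88 in Zbtb32-/- cells, lowest in wild-type replicate 2 and highest in Zbtb32-/- replicate 6, with 14 positive and 2 negative genotype differences. The mean of the 10 genes ran from 7.22 to 9.63 and from 7.77 to 9.27, lowest in the same array but highest in wild-type replicate 5. The B cell list, which holds Cd79b and Pax5, ran from 7.83 to 9.25 and from 8.21 to 8.74, with 0 positive and 6 negative differences. The plasma cell list ran the other way, from 11.32 in wild-type replicate 1 to 10.53 in wild-type replicate 4, and its r with the mean of the 10 genes was -0.81. The genotype ranges overlapped in each of these lists. Other lists had 0 passing genes too: the dendritic list (2 positive and 4 negative, Tcf4 at 0.040, Flt3 at -0.050), the T and NK list (1 and 5, Nkg7 at 0.016, Cd3e at -0.11), the erythroid list (5 and 0, Car1 at 0.98, Epor at 0.12) and the stromal and endothelial list (0 and 7, Pecam1 at -0.32, Col1a1 at -0.027). Xcr1 and Clec9a of the dendritic list, Ncr1 and Klrb1c of the T and NK list and Lepr and Kitl of the stromal list lay under the filter.

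**Figure D4:**
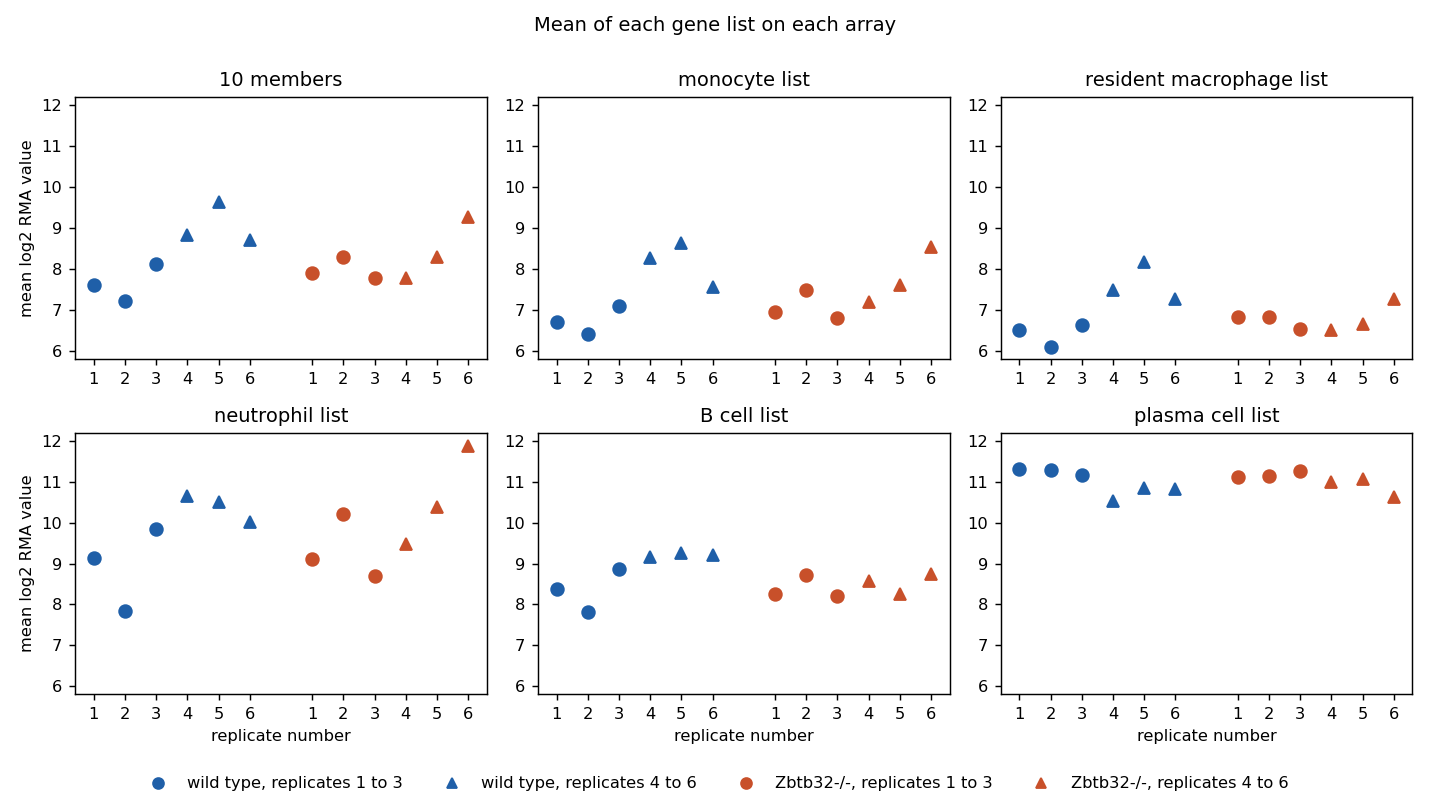
Mean log2 RMA value (y axis) of 6 gene lists on each array, by replicate number (x axis), with wild type in blue, Zbtb32-/- in orange, circles for replicates 1 to 3 and triangles for 4 to 6. The 10 genes and the resident macrophage list are highest in wild-type replicate 5, while the neutrophil list is highest in Zbtb32-/- replicate 6 at 11.88.

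The 10 genes did not all follow the same list. Over the 12 arrays Lyz2 had r = 0.96 with the neutrophil list and 0.79 with the resident macrophage list, while C1qa had 0.68 and 0.98 and Ly86 0.67 and 0.89. Without the 2 arrays named above the values were 0.94 and 0.84 for Lyz2, 0.68 and 0.95 for C1qa, and 0.68 and 0.87 for Ly86. Mpeg1 had r = 0.98 with the monocyte list, with the same rank order on all 12 arrays, and 0.91 with the neutrophil list. Without the 2 arrays its r was 0.97 with the monocyte list and 0.96 with the neutrophil list. The 2 arrays with the highest mean of the 10 genes are part of the r values over 12 arrays, so their single values are no separate support. C1qa was higher in wild-type replicate 5 than in Zbtb32-/- replicate 6 by 1.32, Cd68 by 1.03, Ly86 by 0.90 and Vcam1 by 0.83. Adgre1 was higher by 0.49, Cd14 by 0.33 and Mpeg1, which also followed the neutrophil list, by 0.49. Lyz2 and Cybb were lower in wild-type replicate 5, with differences of -0.93 and -0.94. Csf1r was nearly level between them, at 8.44 and 8.39.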

How the data were processed

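The authors deposited 1 log2 value per probe set and array. The submitters' processing notes name RMA and Affymetrix Expression Console, and versions and a build were not given there. RMA evens the distributions of the arrays and compresses low values, and the labels do not say which arrays were normalized jointly. Of 35556 probe sets, the platform annotation names 1 gene for 21789, several for 1621 and none for 12146. Of several single-gene probe sets of a gene the one of highest mean was kept, and genes at or below the 25th percentile, 5.49, were left out. Genotype, as the only term, was tested by limma (version 3.58.1, under R 4.3.3, with an eBayes trend) and the interaction with replicate sets in a second fit, both adjusted by the Benjamini-Hochberg method over 14993 genes. In simulated data for the genotype comparison with 14993 genes, 35.8%, 71.6% and 98.5% of genes shifted by 0.5, 1 and 2 were recovered. The shifted genes were drawn from all tested genes, whose median SD within genotype was 0.25. The 10 genes had a median SD of 0.84, so these rates do not describe how well shifts in them would be recovered. The number of arrays limits the precision, and p-values measure the spread between samples that the series text calls biological replicates. Members, lists and the replicate split were chosen with earlier results of these data known. The text names each member, its partner genes, the 2 highest genes of each list, sort marker genes and the gene most like each member. Spic, Slc40a1, Gpnmb and Mrc1 were chosen after their values were seen. Alternatives were other normalizations, filters, probe set rules, variance models, array weights, blocks and leaving out arrays. Python 3.11.15, pandas 2.3.3, scipy 1.17.1 and matplotlib 3.10.9 were used.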

Additional observations from a re-analysis of the deposited data

Results flagged for a closer look

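There were 4 single values that stood apart from the other 5 arrays of their genotype by the gap to the next value, all of them in Zbtb32-/- replicate 6. They were Cybb at 11.24, where the next value was 10.29, Csf1r at 8.39 (next 7.33), Vcam1 at 9.13 (next 7.86) and C1qa at 9.78 (next 8.70). The 10 genes gave 20 such groups of 6 arrays. Chance alone picks about 1 in 20 independent groups, but these groups share their arrays and the genes have a similar course, so the 4 values are not separate events. The same array had the highest mean of the neutrophil list, 11.88, and of the NADPH oxidase list, 10.84.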

How the results depend on the processing

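Over all settings run, 0 genes passed for the genotype difference, with 440 to 1422 at an unadjusted p under 0.05, and the 10 genes stayed on the same side of the threshold in both tests. With array weights 1 gene passed the interaction, and on leaving out single arrays the count ran from 0 to 1. It was Lce6a with array weights and when wild-type replicate 4 or Zbtb32-/- replicate 6 was left out, and Uty when Zbtb32-/- replicate 1 was, both named after their values were seen. The genes passing over replicates 4 to 6 alone were Lce6a and Arv1. Cd68 had a limma unadjusted p of 0.014 without wild-type replicates 2 and 6, where 2.93% of all genes were under 0.05. With the replicate number as a block its unadjusted p was 0.0415, where 6.1% were. Mpeg1 was -0.067 with array weights and -0.34 without wild-type replicates 2 and 6, a setting added after the data were seen. On leaving out single arrays Mpeg1 ran from -0.33 to 0.47, Csf1r from -0.27 to 0.17, Adgre1 from -0.40 to 0.19, Vcam1 from -0.49 to 0.10 and Cybb from -0.0042 to 0.28. Lyz2 ran from 0.051 to 0.74, Cd14 from -0.63 to -0.24, Ly86 from -0.66 to -0.051 and C1qa from -0.76 to -0.028. Cd14 was the 1 gene of the 10 with a value under the filter level. The interaction was negative for 9 of 10 genes in every setting, with a median from -1.33 without Zbtb32-/- replicate 6 to -0.47 without wild-type replicate 5. Whether the replicate numbers pair the samples could not be decided from these values. Same-numbered arrays deviated from their genotype means with r from 0.019 to 0.47. With the replicate number as a block 0 genes passed, 914 had an unadjusted p under 0.05 against 642 without it, and 4 of 6 wild-type arrays correlated best with another number.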
